A study of Mus musculus with 8 samples.

Results

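The creatine genes are 6 of the 19935 genes measured in this study of mouse skin: Gatm and Gamt, which make creatine, Slc6a8, which carries it into cells, and Ckb, Ckmt1 and Ckmt2, kinases that use it. They were found by their gene symbol in the array annotation. Each had exactly 1 probe set (a group of array probes that give a single value), so that the rule of keeping the brightest of several chose nothing. The group was put together as a pathway after the fall of Gatm in these same samples was known. That fall is therefore given as a description with its place in the fit of all genes, and it is not independent support for any change of the pathway.

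The study hybridised 1 Affymetrix Mouse Gene 1.0 array per sample to skin RNA in 4 samples labelled Adam10 wild type and 4 labelled Adam10 knockout. Adam10 is a protease of the cell membrane that releases parts of other surface proteins. The titles mark the knockouts as cKO, usually short for conditional knockout. The promoter or cell type that drives the deletion, the strain and the age are not stated in the labels, and the titles carry a P with a number (57 to 60 for wild type, then 67, 68, 69 and 55 for knockouts 1 to 4) whose meaning is not given. The labels call the material both skin and primary skin cells. Epidermal markers were bright on every array, with summed intensities of 7855 to 15352 over 10 basal keratinocyte genes and 19533 to 25842 over 11 genes of differentiated keratinocytes.

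Creatine is built in a pair of enzyme reactions. Gatm, a mitochondrial enzyme, moves the amidino group of arginine onto glycine, and Gamt then adds a methyl group taken from S-adenosylmethionine. Most cells import creatine made elsewhere, through the sodium- and chloride-dependent transporter Slc6a8. Creatine kinases pass phosphate between ATP and creatine, which keeps a store of phosphocreatine where energy use is uneven: Ckb is the cytosolic brain-type enzyme, Ckmt1 the mitochondrial form found in many tissues, and Ckmt2 the mitochondrial form of heart and skeletal muscle. Creatine kinase and the creatine transporter are known in keratinocytes, hair follicles and sebaceous glands.

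Start regions in the genome are shown for 3 members with unlike array patterns, namely Gatm, which fell, Ckb, whose values overlapped between the genotypes, and Ckmt2, which was highest on the 2 arrays with the most muscle signal. RefSeq start regions (assembly GRCm38.p6) were matched by symbol for 5 of the 6 members, Gatm, Gamt, Ckb, Ckmt1 and Ckmt2. Each line gives the 250 bases before the start on the gene's own strand. Capitals mark matches, on either strand, to CANNTG (the E-box), CCAAT (read on the other strand as ATTGG) and TATAAA. The positions are chr2:122611278-122611527 for Gatm, chr12:111672339-111672588 for Ckb and chr13:91876886-91877135 for Ckmt2, all on the minus strand.
Gatm: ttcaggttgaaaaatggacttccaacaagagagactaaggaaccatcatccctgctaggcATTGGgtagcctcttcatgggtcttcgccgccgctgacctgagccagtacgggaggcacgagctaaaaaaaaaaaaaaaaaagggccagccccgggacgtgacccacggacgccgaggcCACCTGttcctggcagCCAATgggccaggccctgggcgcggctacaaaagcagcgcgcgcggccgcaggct
Ckb: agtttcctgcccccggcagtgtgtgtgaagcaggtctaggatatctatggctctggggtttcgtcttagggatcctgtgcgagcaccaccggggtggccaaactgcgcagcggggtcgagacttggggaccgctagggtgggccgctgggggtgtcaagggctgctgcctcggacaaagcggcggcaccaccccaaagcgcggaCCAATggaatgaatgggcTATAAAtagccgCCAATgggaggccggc
Ckmt2: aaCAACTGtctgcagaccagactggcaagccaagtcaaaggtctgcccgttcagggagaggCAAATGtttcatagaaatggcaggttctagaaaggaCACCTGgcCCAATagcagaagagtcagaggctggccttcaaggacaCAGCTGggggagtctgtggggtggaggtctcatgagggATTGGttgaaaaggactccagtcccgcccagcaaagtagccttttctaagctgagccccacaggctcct

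CANNTG occurred 4 times before Ckmt2, once before Gatm and 0 times before Ckb. It is common: 66.2% of all 32851 RefSeq start regions of this length hold at least 1. CCAAT occurred 2 times before each of the 3 genes. At least 1 is held by 33.8% of all start regions, and the share with 2 was not counted. Of the 5 matched members 4 held at least 1, and Gamt held 0. TATAAA was found before Ckb, 28 bases from the start, and is held by 12.4% of all start regions. No searched motif overlapped another in these 3 sequences. These matches describe letters, and no binding was measured.

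Gatm was lower in the knockout skin, and it was the 1 member of 6 that passed the test. Its linear intensity was 39.5, 35.9, 56.4 and 180.0 in wild-type samples 1 to 4 and 21.5, 14.4, 16.1 and 14.3 in knockout samples 1 to 4. All 4 knockouts lay below all 4 wild types, and wild-type sample 4 lay far above the other wild types. On the log2 scale the wild-type mean was 5.94 ± 1.07 and the knockout mean 4.03 ± 0.28 (SD, n = 4). They differed by -1.92 (SE 0.43, 95% interval -2.87 to -0.96), or 3.77-fold lower. The limma adjusted p over all genes was 0.024. The exact two-sided permutation p for Gatm alone was 0.0286, the smallest that the 70 assignments of 4 and 4 samples can give. By size it was the 33rd largest fall of 19935 genes.

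The share of all genes called in the same fit was 8.75%, with 6.41% called higher and 2.34% called lower in knockout. Nothing is read from 1 call among 6 members, since Gatm was known beforehand. The 1744 calls split into 1277 higher and 467 lower, and into 847 and 497 after quantile normalization, 769 and 582 after cyclic loess. After median centring, where the median change over all genes was 0.10 (log2), the split was 2453 and 286. The groups did not overlap for 18.1% of all genes, and 5.86% of all genes had no overlap with lower knockout values. Of the 6 members this held for 1, Gatm. The median change of the 6 members was -0.31 on the log2 scale against 0.0027 for all genes. That median lies between Ckmt1 at -0.07 and Gamt at -0.55, which both overlapped between the genotypes. It counts Gatm too, so it is not read as a fall of the pathway. Of the 6, 4 had a lower mean in knockout and 2 a higher one.

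**Figure D1:**
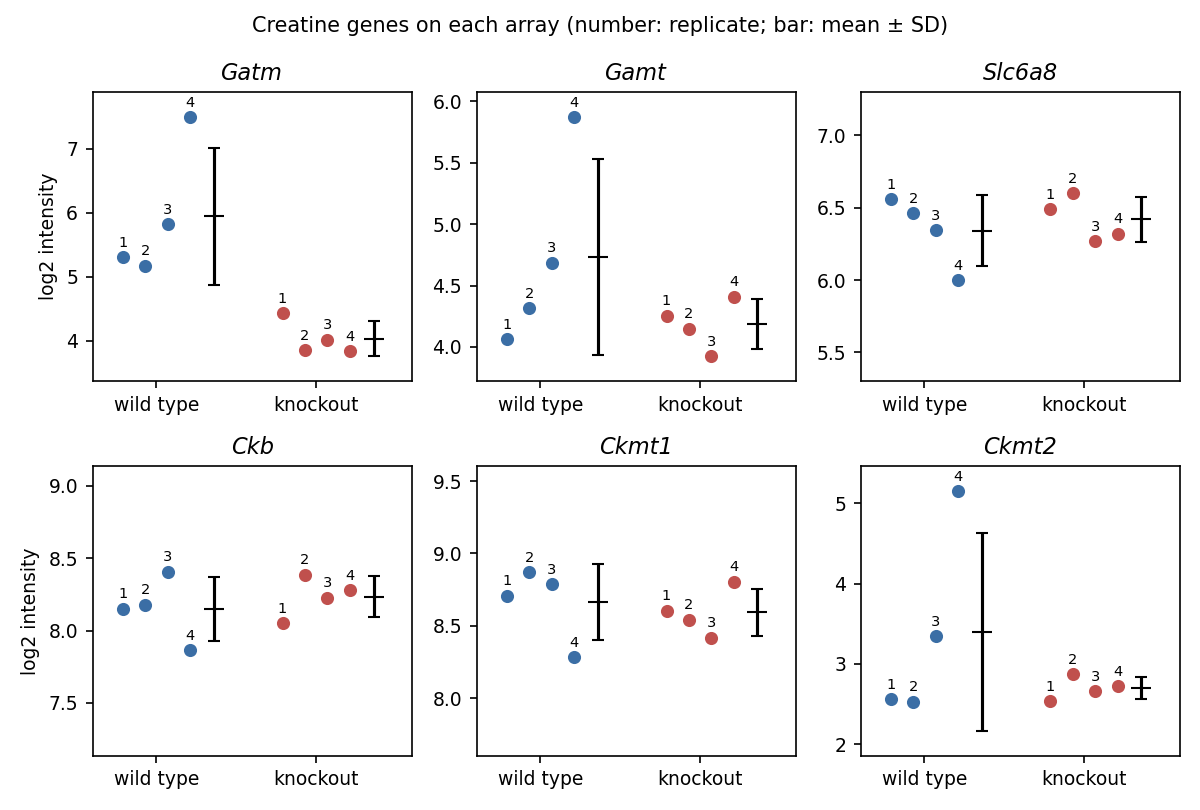
Log2 intensity of each creatine gene (vertical axis, a separate scale per gene) on the 4 wild-type (blue) and 4 knockout (red) arrays, numbered by replicate, with mean and SD as black bars. Gatm shows 4 knockout points below all wild-type points, while the points of the other 5 genes overlap between the genotypes, with wild-type array 4 highest for Gatm, Gamt and Ckmt2 and lowest for Slc6a8, Ckb and Ckmt1.

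Wild-type sample 4 set much of the size of the Gatm difference. Without it the difference was -1.40 (SE 0.18, limma adjusted p = 0.0018), or 2.64-fold lower. With wild-type samples 3 and 4 both left out it was -1.21 (SE 0.17, limma adjusted p = 0.0076), or 2.31-fold lower. The call was lost without wild-type sample 3 (limma adjusted p = 0.062) and without knockout sample 2 (0.083), 3 (0.064) or 4 (0.058), with differences of -1.96 to -1.85. It was also lost on the scale of log2 of the value plus 16 (-1.30, adjusted p = 0.075), when all 35519 probe sets were tested (adjusted p = 0.062) and with a trended and robust prior (adjusted p = 0.061).

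Skeletal muscle and dermal markers were highest on the same 2 wild-type arrays, and fat markers on wild-type array 4. Smooth muscle and endothelial markers were also highest on wild-type arrays 3 (sums of 194 and 146) and 4 (734 and 502). Their knockout sums were 122 to 127 and 97.8 to 105. The 20 skeletal muscle markers summed to 380 and 437 on wild-type arrays 1 and 2, to 1402 on array 3 and to 8922 on array 4, against 331 to 392 in the knockouts. The 10 dermal fibroblast markers summed to 1097 and 1120 on wild-type arrays 1 and 2, to 2348 on array 3 and to 7618 on array 4, and to 1293 to 1434 in the knockouts. The mean log2 level of the dermal list, which weighs its genes equally, was 5.02, 5.23, 6.59 and 8.50 on wild-type arrays 1 to 4 and 5.03 to 5.06 in the knockouts, so that wild-type array 2 lay below the knockouts by the sum and above them by the mean. The 11 measured adipocyte markers summed to 185, 239, 205 and 1681 on wild-type arrays 1 to 4 and to 162 to 176 in the knockouts, with no overlap and 0 of 11 passing in limma (1 at an unadjusted p under 0.05). On wild-type arrays 1 and 2 Gatm was 39.5 and 35.9, against 14.3 to 21.5 in the knockouts. No marker of the skeletal muscle, dermal and adipocyte lists was at an intensity of 0. Of the muscle and dermal lists, 0 of 20 and 0 of 10 genes passed in limma, with 3 and 5 at an unadjusted p under 0.05, which 25.1% of all genes reached. With the mean of the muscle markers as a covariate the Gatm difference was -1.07 (SE 0.18, limma adjusted p = 0.0064), and with the dermal markers it was -1.08 (SE 0.19, limma adjusted p = 0.0087).

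Macrophage and monocyte markers were lower in the knockouts as well. Of 12 measured markers 6 fell and 0 rose, and their sum was 426 to 711 in wild type and 218 to 298 in knockout, with no overlap and no marker at 0. Of 11 sebocyte markers 3 fell, with sums of 1828 to 2119 in wild type and 1409 to 1651 in knockout. Of 10 basal keratinocyte markers 9 rose, with sums of 7855 to 10695 in wild type and 13541 to 15352 in knockout. Of 13 markers of hair shaft and inner root sheath 2 fell, with sums of 472 to 695 in wild type and 408 to 460 in knockout. Of 8 melanocyte markers 4 rose, with sums of 397 to 584 in wild type and 661 to 974 in knockout. The sums of these lists did not overlap between the genotypes. Over all genes 2.34% were called lower and 6.41% higher, and 18.1% of single genes had no overlap. The part of the cell type markers, those of muscle, dermis and fat included, in the Gatm result was not tested. The muscle and dermal covariates stand out mainly on wild-type arrays 3 and 4, so the fits with them do not settle that part. Where a sample holds several cell types, fewer cells that hold a transcript and less of it per cell cannot be told apart.

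**Figure D2:**
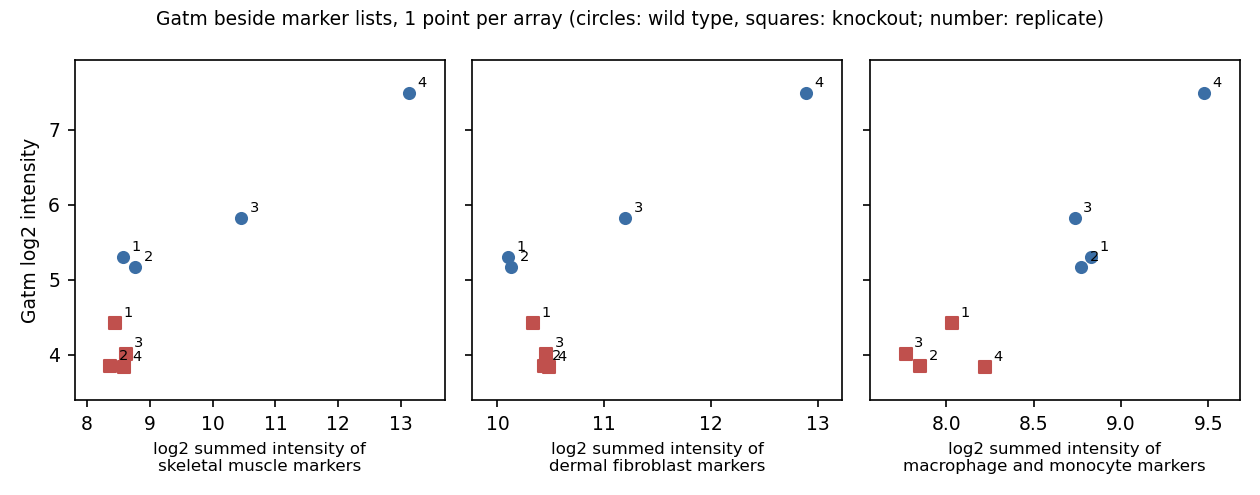
Log2 intensity of Gatm (vertical axis) against the log2 summed intensity of skeletal muscle, dermal fibroblast and macrophage markers (horizontal axes), 1 point per array, with wild type as blue circles and knockout as red squares. Wild-type arrays 3 and 4 stand to the right for muscle and dermis, whereas for macrophage markers all 4 wild-type arrays (sums of 426 to 711) stand to the right of all knockouts (218 to 298).

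Gamt, the methyltransferase that completes creatine, did not pass the test. Its intensity was 16.7, 19.9, 25.7 and 58.5 in wild-type samples 1 to 4 and 19.1, 17.7, 15.2 and 21.2 in knockout samples 1 to 4. The groups overlapped, and wild-type sample 4 alone was far above the rest. The difference was -0.55 on the log2 scale (SE 0.33, 95% interval -1.27 to 0.17, limma adjusted p = 0.32). It was -0.17 without wild-type sample 4, and 0.087 with the muscle markers as a covariate, where its direction turned.

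The ratio of Gatm to Gamt within an array asks whether both synthesis enzymes changed alike. On the log2 scale it averaged 1.21 ± 0.32 over the wild types and -0.16 ± 0.35 over the knockouts (SD, n = 4), a change of -1.37 in which the groups did not overlap. Of the 15 ratios between members, the 5 that hold Gatm had no overlap between genotypes and the other 10 overlapped. These 5 share Gatm, whose fall was known beforehand, so they are not independent of that fall or of each other. The exact two-sided permutation p was 0.0286 for each of the 5, the smallest possible, and 0.086 after Benjamini-Hochberg adjustment over the 15, so that none passed. The change of the other Gatm ratios was -1.99 against Slc6a8, -2.00 against Ckb, -1.85 against Ckmt1 and -1.22 against Ckmt2.

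Slc6a8, the creatine transporter, did not pass the test. Its intensity was 94.3, 88.2, 81.3 and 63.9 in wild-type samples 1 to 4 and 89.9, 97.1, 77.0 and 79.8 in knockout samples 1 to 4. Wild-type sample 4 was the lowest of all 8 and the groups overlapped. The difference was 0.08 on the log2 scale (SE 0.14, limma adjusted p = 0.76), with a 95% interval of -14.3% to 30.1%. The sign was not stable: the difference was -0.036 without wild-type sample 4 and -0.024 after quantile normalization.

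The cytosolic kinase Ckb likewise overlapped between the genotypes. Its intensity was 284, 290, 339 and 233 in wild-type samples 1 to 4 and 265, 334, 300 and 311 in knockout samples 1 to 4. The difference was 0.09 on the log2 scale (SE 0.13, limma adjusted p = 0.72), with a 95% interval of -12.8% to 29.0%. It was -0.0095 without wild-type sample 4, the lowest array, and -0.016 after quantile normalization. RefSeq also lists Ckb pseudogenes, and how far this probe set reads them is not given in the sources used here.

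The mitochondrial kinase Ckmt1 lay at 418, 468, 441 and 311 in wild-type samples 1 to 4 and at 389, 373, 342 and 448 in knockout samples 1 to 4. Again the groups overlapped, with wild-type sample 4 lowest. The difference was -0.07 on the log2 scale (SE 0.14, limma adjusted p = 0.80), with a 95% interval of -23.3% to 18.6%, and it was 0.033 after median centring. For Slc6a8, Ckb and Ckmt1 these intervals leave out a fall of the size fitted for Gatm (-73.5%). They do not show that the 3 genes were equal in both genotypes.

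Ckmt2, the mitochondrial kinase of striated muscle, was highest on the arrays with the most muscle signal. Its intensity was 5.90, 5.77, 10.2 and 35.5 in wild-type samples 1 to 4 and 5.80, 7.33, 6.31 and 6.58 in knockout samples 1 to 4. Wild-type samples 3 and 4 were above all other arrays, and the remaining 6 lay below the 25th percentile of the genes on their own arrays. No detection calls were used here, so whether these low values exceed background is not known. The difference was -0.70 on the log2 scale (SE 0.48, 95% interval -1.76 to 0.36, limma adjusted p = 0.39). It was -0.12 without wild-type sample 4 and turned to 0.15 without wild-type samples 3 and 4.

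Ckm, the cytosolic creatine kinase of skeletal muscle and no member of the group, showed the same arrays high. It read 24.3, 27.8, 127 and 996 in wild-type samples 1 to 4 and 20.4 to 26.2 in the knockouts. The difference was -2.04 on the log2 scale with an SE of 0.96, and it did not pass (limma adjusted p = 0.22). The fitted changes of Ckm and Gatm were of like size. For Ckm, 2 wild-type values were near those of the knockouts, and for Gatm all 4 were higher. The part of muscle cells in the Gatm difference was not tested.

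The genes around the creatine pathway were read from 5 lists of 75 measured genes, of which 7 rose and 4 fell in limma, 14.7% against 8.75% of all genes. Called higher were 6.41% of all genes, and called lower 2.34%. The lists were chosen with earlier results of these data known, so nothing is read from the larger share. The number of calls ran from 6 to 21 over the alternatives. The 11 calls became 7 without wild-type sample 2 or knockout sample 1, 2 or 3. In the list of arginine, glycine and ornithine metabolism, 2 of 17 rose and 2 fell, with a median change of -0.15. Gldc, a subunit of the enzyme that breaks down glycine, fell from 52.2, 41.9, 45.2 and 31.5 in wild-type samples 1 to 4 to 18.8, 15.5, 17.6 and 18.5 in knockout samples 1 to 4. All knockouts were below all wild types, and the difference was -1.26 on the log2 scale (SE 0.15, limma adjusted p = 0.0021). Arg2, the mitochondrial arginase, fell by 0.88 (SE 0.16, limma adjusted p = 0.011). Shmt1, a cytosolic enzyme that interconverts serine and glycine, rose by 0.88 (SE 0.13, limma adjusted p = 0.0043). Slc7a1, a carrier of arginine and other cationic amino acids, rose by 1.13 (SE 0.30, limma adjusted p = 0.042) and lost its call in 6 of the 8 fits that leave out 1 array.

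Among other transporters of the Slc6 family and 1 creatine exporter candidate, Slc16a12, 3 of 17 rose and 1 fell, with a median change of -0.0013. Over all genes 6.41% were called higher and 2.34% lower. Slc6a6, the taurine transporter, rose from 58.4 to 86.4 in wild type to 112 to 160 in knockout, a difference of 1.03 on the log2 scale (SE 0.16, limma adjusted p = 0.0052). Slc6a14, which carries neutral and cationic amino acids, rose by 1.06 (SE 0.15, limma adjusted p = 0.0037). Slc6a15, a carrier of neutral amino acids, rose by 0.61 (SE 0.14, limma adjusted p = 0.026) from low values and lost its call in 5 of the 8 fits that leave out 1 array. Slc6a19, another neutral amino acid transporter, fell by 1.53 (SE 0.18, limma adjusted p = 0.0020), from 41.5 to 56.4 in wild type to 13.3 to 24.3 in knockout. Slc16a12 had a difference of -0.38 (limma adjusted p = 0.24).

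Genes that supply or use methyl groups gave 0 calls of 13 in limma, with a median change of 0.06 and 5 of 13 at an unadjusted p under 0.05, against 25.1% of all genes. The smallest p was that of Mat2b, the regulatory subunit of methionine adenosyltransferase, with a difference of 0.39 (SE 0.11, limma adjusted p = 0.060). Of 16 other phosphagen and adenylate kinases and related genes, 1 rose and 1 fell, with a median change of -0.07. The share called over all genes, to be set beside the counts of these lists, was 8.75%. Ak4, a mitochondrial adenylate kinase, fell by 0.86 (SE 0.14, limma adjusted p = 0.0072). Ak3, another mitochondrial kinase of this family, rose by 0.39 (SE 0.10, limma adjusted p = 0.034), which it lost in 7 of the 8 fits that leave out 1 array. Of 12 mitochondrial partners and regulators 1 rose, Tfam, a factor of mitochondrial DNA upkeep, by 0.39 (SE 0.10, limma adjusted p = 0.044), lost in 6 of those 8 fits.

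**Figure D3:**
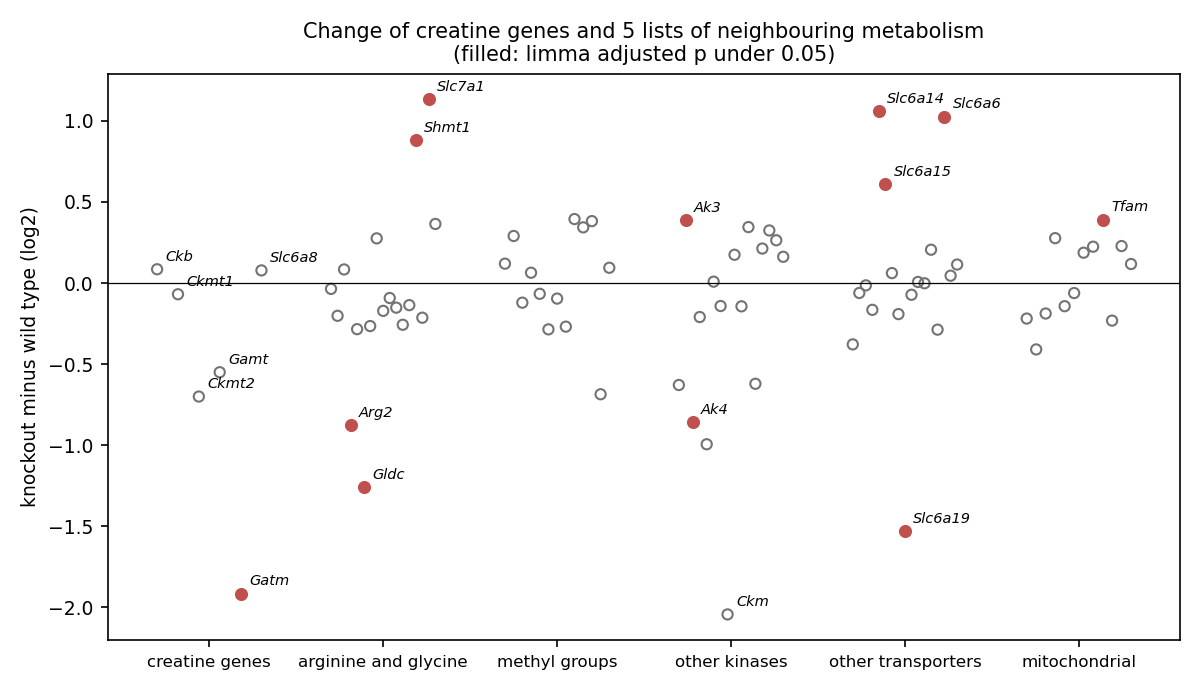
Log2 difference between knockout and wild type (vertical axis, negative where knockout is lower) for the 6 creatine genes and 5 lists around the pathway (horizontal axis), 1 point per gene, filled where the limma adjusted p was under 0.05. Gatm at -1.92 is the 1 filled point of the creatine genes, while Ckm at -2.04 is open.

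The genes with the array pattern most like that of each member were picked by Pearson's r of log2 values over the 8 arrays, which share wild-type array 4 as their most distant array. For Gatm they were Olfml3 (r = 0.998, Spearman's rho = 0.98), Dab2 (r = 0.991, rho = 0.98) and Cog4 (r = 0.985, rho = 0.90), and r was 0.992, 0.968 and 0.937 without wild-type arrays 3 and 4. Olfml3, a secreted olfactomedin-like protein, fell by 1.68 (SE 0.37, limma adjusted p = 0.022) and Dab2, an adaptor of endocytosis, by 1.12 (SE 0.30, limma adjusted p = 0.049). Leaving out 1 array ended the call of Olfml3 in 4 of 8 fits and that of Dab2 in 5. With the genotype means subtracted, Olfml3 (r = 0.996, rho = 0.93), Myf5 (r = 0.989, rho = 0.86) and Thbs2 (r = 0.987, rho = 0.86) came closest to Gatm. Without wild-type arrays 3 and 4 these r were 0.984, 0.957 and 0.963. The means subtracted were those over all arrays of a genotype, the arrays left out included. These r therefore still depend on wild-type arrays 3 and 4 and cannot show that the likeness holds without them. Myf5 was dim on every array, with intensities of 2.93 to 6.45. No p-value is given, since these were the highest of 19934 values. An r over 0.9 with Gatm was reached by 317 genes, and by 569 with the genotype means subtracted.

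For Gamt the closest were Tmod4 (r = 0.993), Olfml2a (0.990) and Clec10a (0.990), with r of 0.907, 0.856 and 0.824 without wild-type arrays 3 and 4. For Ckmt2 they were Fstl1 (0.996), Xirp2 (0.996), a protein of striated muscle, and Osr2 (0.993), with r of 0.916, 0.794 and 0.862 without those arrays. Slc6a8 was closest to R3hdm1 (0.976), Setd6 (0.967) and Med25 (0.966), with 0.932, 0.909 and 0.922 without wild-type array 4 and knockout array 2. Ckb was closest to Tbck (0.945), Tti1 (0.941) and Ocln (0.940), with 0.954, 0.860 and 0.880 without wild-type arrays 3 and 4. Ckmt1 was closest to Jak1 (0.968), Zfp612 (0.967) and Erbb2 (0.963), with 0.912, 0.892 and 0.879 without wild-type array 4 and knockout array 3. An r over 0.9 was reached by 494 genes for Gamt, 546 for Ckmt2, 88 for Slc6a8, 13 for Ckb and 70 for Ckmt1. With the genotype means subtracted, the closest were Maged2, Mpv17 and Tmod4 to Gamt, Pkp4, R3hdm1 and Ptchd3 to Slc6a8, Lmnb1, Kctd15 and Osbpl5 to Ckb, Klf13, Foxn1 and Ccl20 to Ckmt1, and Wif1, Fstl1 and Xirp2 to Ckmt2.

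**Figure D4:**
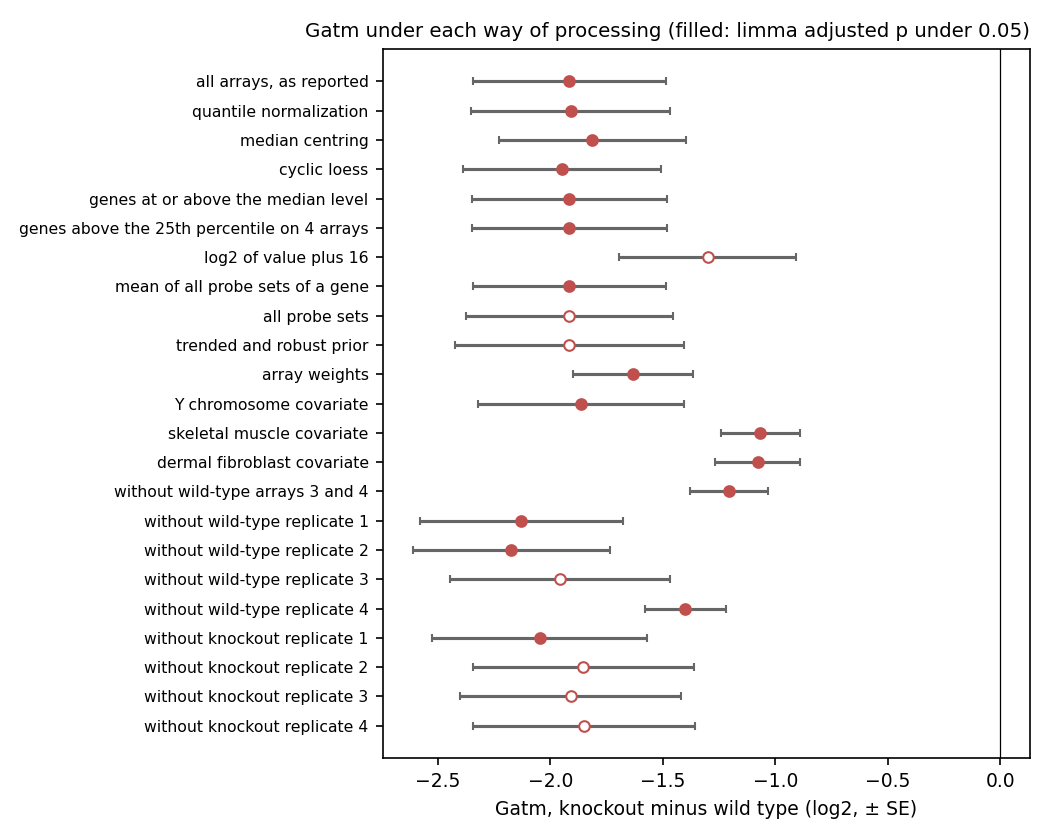
Log2 difference of Gatm between knockout and wild type with its SE (horizontal axis, negative where knockout is lower), for all arrays and for each other way of processing or sample left out (vertical axis), filled where the limma adjusted p was under 0.05. Every value is below 0, from -2.17 to -1.07, and 7 of the alternatives drawn have open points.

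Adam10 itself was 115.5, 127.8, 132.0 and 110.8 in knockout samples 1 to 4 against 167.2, 161.0, 133.8 and 162.5 in wild-type samples 1 to 4. Its difference was -0.36 on the log2 scale (SE 0.11), which missed the threshold in limma (adjusted p = 0.064) and passed it after quantile normalization (-0.46, adjusted p = 0.033) or cyclic loess (-0.49, adjusted p = 0.027). Which part of the gene the probes read and which exons were deleted is not given in the sources used here. Array medians over all probe sets were 14.15 to 15.12 intensity units in wild type and 13.28 to 14.09 in knockout, with no overlap. The 3 measured genes of the Y chromosome summed to 12.7 to 15.9 on wild-type array 1 and knockout arrays 1 and 4 and to 152 to 177 on the other 5. With their mean as a covariate the Gatm difference was -1.87 (SE 0.46, limma adjusted p = 0.043).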

How the data were processed

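The deposited table gives each probe set an intensity on each array, computed by the authors with RMA (background correction, normalization across arrays and summary of probes) per the submitters' processing notes. No version, setting or genome build is named there. Values ran from 0.817 to 11173 and were read as linear. Log2 was taken with no pseudocount. Of 35519 probe sets, 21780 carried exactly 1 gene symbol, 1605 several and 12134 none; the brightest per symbol was kept for 998 genes with several, which left 19935 genes. No filter was applied.

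Knockout was compared with wild type in limma 3.58.1 (R 4.3.3; lmFit and eBayes, two-sided, Benjamini-Hochberg over all genes, threshold 0.05), tested on simulated data. Each member, and each ratio between members, also had an exact permutation test. Differences are log2 knockout means minus log2 wild-type means. The labels do not say that each sample is a separate animal. The p-values therefore set each difference against the spread between these samples, which may not be the spread between animals. Array number limits the precision.

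The named genes are Adam10, the members, pathway genes that passed (or the smallest p of a list), and the 3 genes most like each member, leaving out predicted genes and receptors of smell. Ckm, Slc16a12, Ak1, Ampd1 and Nnmt were named after their values were seen. The members and lists were chosen with earlier results of these data known. The alternatives are in the closing section; the dermal fibroblast covariate was added after seeing the data.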

Additional observations from a re-analysis of the deposited data

How the results depend on the processing

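No paired analysis was possible because the labels give the groups no shared replicate numbers. Of 24 alternatives, Gatm kept its direction in all 24 and its call in 16. It lost the call at -1.30 with log2 of the value plus 16, and at -1.92 with all probe sets, with the trended and robust prior and at a threshold of 0.01; leaving out 1 array gave -2.17 to -1.40 and ended the call in 4 of 8 fits. The number of members called was 0 wherever Gatm lost its call (0 to 1 with 1 array left out) and 1 otherwise. The other 5 members passed under none of the alternatives run, and Ckmt2 gave no value under the 2 filters on dim genes. Directions turned as follows, and the cause was not tested. Gamt was at 0.087 with the muscle covariate and 0.083 with the dermal one. Slc6a8 was at -0.024 after quantile normalization, -0.039 after cyclic loess, -0.12 with either covariate, -0.091 without wild-type arrays 3 and 4 and -0.036 to 0.15 with 1 array left out. Ckb was at -0.016 after quantile normalization, -0.047 after cyclic loess, -0.056 with array weights, -0.025 with the muscle covariate, -0.011 with the dermal one and -0.0095 to 0.17 with 1 array left out. Ckmt1 was at 0.033 after median centring and -0.20 to 0.00074 with 1 array left out. Ckmt2 was at 0.28 with either covariate and 0.15 without wild-type arrays 3 and 4. Outside the group, Ak1 turned to 0.18 and 0.16 and Ampd1 to 0.22 and 0.20 with the muscle and dermal covariates.

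Over all genes, 1744 calls became 2739 after median centring, 1099 with all probe sets, 3621 with array weights, 478 and 2958 at thresholds of 0.01 and 0.10, 925 without wild-type arrays 3 and 4, and 587 to 1997 with 1 array left out (992 and 750 without wild-type arrays 2 and 3, and 911, 587 and 809 without knockout arrays 1 to 3). The 11 calls in the 5 pathway lists became 21, 7, 20, 6 and 17 under the 5 settings named before those arrays, 17 with log2 of the value plus 16, and 7 to 13 with 1 array left out. All 11 called pathway genes kept their direction, and Shmt1, Gldc, Ak4, Slc6a6, Slc6a14 and Slc6a19 kept their calls under all 24 alternatives. The 5 ratio pairs without overlap became 9 without wild-type arrays 3 and 4, where fewer samples make overlap rarer. Without detection calls, how far dim values such as those of Ckmt2 stand above background is not known.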

Other observations

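Ak1 and Ampd1, chosen after their values were seen, shared with Ckm a highest value on wild-type array 4. Ak1, the cytosolic adenylate kinase of muscle, ran from 4.80 to 7.18 on the log2 scale in wild type and from 4.70 to 5.54 in knockout, with a difference of -0.63 (SE 0.44, limma adjusted p = 0.40). Ampd1, the AMP deaminase of skeletal muscle, ran from 3.04 to 6.36 in wild type and from 2.72 to 3.22 in knockout, with a difference of -0.99 (SE 0.62, limma adjusted p = 0.34). Neither passed. On wild-type array 3, where Ckm read an intensity of 127, Ak1 read 35.5, below wild-type array 2 (39.1) and knockout array 4 (46.5), and Ampd1 lay at 3.46 on the log2 scale, above the knockouts. Nnmt, which uses S-adenosylmethionine to methylate nicotinamide, had the largest difference of the methyl group list (-0.69, SE 0.28, limma adjusted p = 0.15). It too was highest on wild-type array 4, with intensities of 10.8, 10.9, 12.3 and 27.5 on wild-type arrays 1 to 4. The knockouts read 7.01 to 10.3.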
